A study of Mus musculus with 6 samples.

Results

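The 33 genes described here mark successive steps of dentate neurogenesis and of the cell cycle. With earlier results of these data known, they were chosen by symbol from what the genes are known for. They come from 36008 genes in the deposited gene table. By role they are 5 stem and radial glia genes (Sox2, Pax6, Nes, Hopx and Vim), 3 genes of intermediate progenitors (Eomes, Neurog2 and Neurod1), 5 genes of immature neurons (Tbr1, Sox4, Sox11, Igfbpl1 and Draxin), 2 G1 cyclins (Ccnd1 and Ccnd2), 8 S phase genes (Pcna, Mcm2 to Mcm7 and Rrm2) and 10 genes of G2 and mitosis (Mki67, Top2a, Ccna2, Ccnb1, Cdk1, Bub1, Birc5, Ube2c, Cenpf and Aurkb). Poly(A)+ RNA was sequenced from whole hippocampus of 3 wild-type (WT) and 3 Prmt9 knockout (Prmt9 KO) mice, all female, B6J and 2 weeks old. Per the study's methods, the Prmt9 KO mice lack Prmt9, an arginine methyltransferase, in the whole body after germline deletion with CMV-Cre of an exon flanked by loxP sites, and the WT mice are same-sex littermates. The comparison asks whether the genes of this programme differ with the loss of Prmt9.

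The dentate gyrus of the hippocampus keeps producing granule neurons after birth. Radial glia-like stem cells in the subgranular zone give rise to intermediate progenitors that carry Eomes, these divide, and their daughters pass through an immature stage before they become granule neurons. Cells enter the cycle with D-type cyclins, copy their DNA with the MCM helicase and its partners, and divide under Cdk1 and the mitotic kinases, so the S phase and G2/M genes are expressed in dividing cells of any lineage, oligodendrocyte precursors included. In whole tissue a lower level of such a gene can come from fewer cells or from less RNA per cell, and these cannot be told apart here.

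All 33 genes were measured, with at least 135 estimated counts in every mouse. No gene passed the thresholds between Prmt9 KO and WT, and the levels of the genotypes overlapped for each of the 33. The wider differences lay between mice of the same genotype: both mice that the labels number 1, WT 1 and Prmt9 KO 1, had higher levels of most of these genes than the other 4 mice, and the G2/M genes differed most.

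Several of these genes share sequence elements in front of their starts, and the promoters of 5 genes that hold such elements are shown as examples. Whether these elements bear on the levels across the mice was not tested. Genes of G2 and mitosis are known to be regulated through the cell cycle genes homology region (CHR), often with CCAAT boxes near it, and S phase genes through E2F sites. RefSeq (GRCm38.p6) gives a promoter for 27 of the 33 genes, and the other 6 are Igfbpl1, Ccnd1, Ccnd2, Mcm4, Ccna2 and Aurkb. The 250 bases before each start were searched on both strands for the CHR, as TTTGAA or TTCGAA, for CCAAT, and for E2F sites, as TTTGGCGC, TTTCCCGC, TTTCGCGC or TTTGCCGC. The last 120 bases before the start are printed 5′ to 3′ along the gene, with matches to these motifs in capitals. The last 26 bases of the Cdk1 window lie in an annotated exon, and the other 4 windows hold no exon base.
Cdk1, chr10:69352913-69353032, reverse strand: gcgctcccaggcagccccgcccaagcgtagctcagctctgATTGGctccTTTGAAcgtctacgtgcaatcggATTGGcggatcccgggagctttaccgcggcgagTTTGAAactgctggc
Top2a, chr11:99024190-99024309, reverse strand: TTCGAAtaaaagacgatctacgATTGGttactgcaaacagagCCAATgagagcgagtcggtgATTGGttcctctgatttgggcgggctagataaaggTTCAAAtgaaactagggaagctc
Mki67, chr7:135716380-135716499, reverse strand: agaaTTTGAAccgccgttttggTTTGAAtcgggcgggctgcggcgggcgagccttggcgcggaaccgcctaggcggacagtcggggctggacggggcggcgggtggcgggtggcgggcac
Mcm6, chr1:128359706-128359825, reverse strand: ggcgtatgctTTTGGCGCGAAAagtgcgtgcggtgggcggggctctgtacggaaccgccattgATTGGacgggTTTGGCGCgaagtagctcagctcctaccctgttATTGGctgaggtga
Mcm2, chr6:88898781-88898900, reverse strand: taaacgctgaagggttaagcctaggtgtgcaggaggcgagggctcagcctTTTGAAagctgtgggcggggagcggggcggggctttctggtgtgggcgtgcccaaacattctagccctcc
In these windows Cdk1 held CHR matches 71 and 15 bases before the start and CCAAT boxes on the reverse strand at 80 and 48 bases. Top2a held 3 CCAAT boxes at 98, 78 and 58 bases, with CHR matches at 120 and 23 bases. Mki67 had CHR matches at 116 and 98 bases, with no CCAAT box inside the printed window and 3 further upstream. Mcm6 carried E2F matches at 110, 106 and 47 bases, the first 2 of which overlap, and CCAAT boxes at 57 and 14 bases. Mcm2 had a CHR match at 70 bases and no E2F match.

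Over the 250 bases, a CHR match was present in 4 of 8 G2/M promoters (Mki67, Top2a, Cdk1 and Ube2c), in 2 of 7 S phase promoters and in 17.1% of all 32851 promoters. A CCAAT box was found in 7 of 8 G2/M, 7 of 7 S phase and 33.8% of all promoters. Both motifs stood together in 4 of 8 G2/M promoters, 2 of 7 S phase promoters and 6.02% of all promoters. An E2F match was present in 3 of 7 S phase promoters (Mcm5, Mcm6 and Mcm7), in 1 of 8 G2/M promoters (Cdk1) and in 1.86% of all promoters. Of the 5 stem promoters, 0 held a CHR or an E2F match and 4 a CCAAT box. Of the 4 promoters of immature neuron genes, 2 held a CHR match (Tbr1 and Sox11), 2 a CCAAT box and 1 both. These matches describe the letters in a window only. For 17 of the 27 genes the listed promoter lies at most 50 bases from the start of the main annotated transcript. For Cenpf the distance was 39230 bases, as its main transcript by TPM was the 358-base Cenpf-202 and the promoter lies at the annotated 5′ end of the gene. For Mcm7 it was 539 bases. In Mcm7, Vim, Tbr1 and Pcna, all of the last 120 bases lie in annotated exons, and these promoters are included in the counts above.

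The libraries held between 194098391 and 286771677 estimated counts. WT 1 and Prmt9 KO 1 stood apart before any genotype was compared: in a principal component analysis of gene counts, component 1 took 67.4% of the variance and put WT 1 at -110.3 and Prmt9 KO 1 at -30.6, and the other 4 mice between 31.5 and 37.8. In WT 1, 37.4% of the annotated transcripts had no count, against 22.8% to 24.8% in the other mice, and mitochondrial transcripts took 7.50% of the TPM in WT 1 and 9.32% in Prmt9 KO 1, against 11.0% to 11.7% in the others. The labels do not say what the number marks, whether a litter, a day or a preparation. The targeted gene matched the labels, as Prmt9 had 11.8, 15.2 and 15.0 TPM in WT 1, 2 and 3 and 3.93, 4.61 and 4.67 TPM in Prmt9 KO 1, 2 and 3. The log2 fold change of Prmt9 was -1.71 (SE 0.10, edgeR quasi-likelihood test, Benjamini-Hochberg adjusted p = 0.0327). The granule neuron markers (Prox1, C1ql2, Dsp, Calb1 and Stxbp6) and the pyramidal neuron markers, of which Neurod6 was highest at 114 to 148 TPM, were present in every mouse.

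Values of single genes are given below as TPM, which scales a count by transcript length and by the sum over the library. They are given in the order WT 1, 2 and 3, then Prmt9 KO 1, 2 and 3. Hopx had the highest level of the 33 genes, at 112 to 163 TPM, and Bub1 the lowest, at 0.361 to 0.989 TPM.

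**Figure D1:**
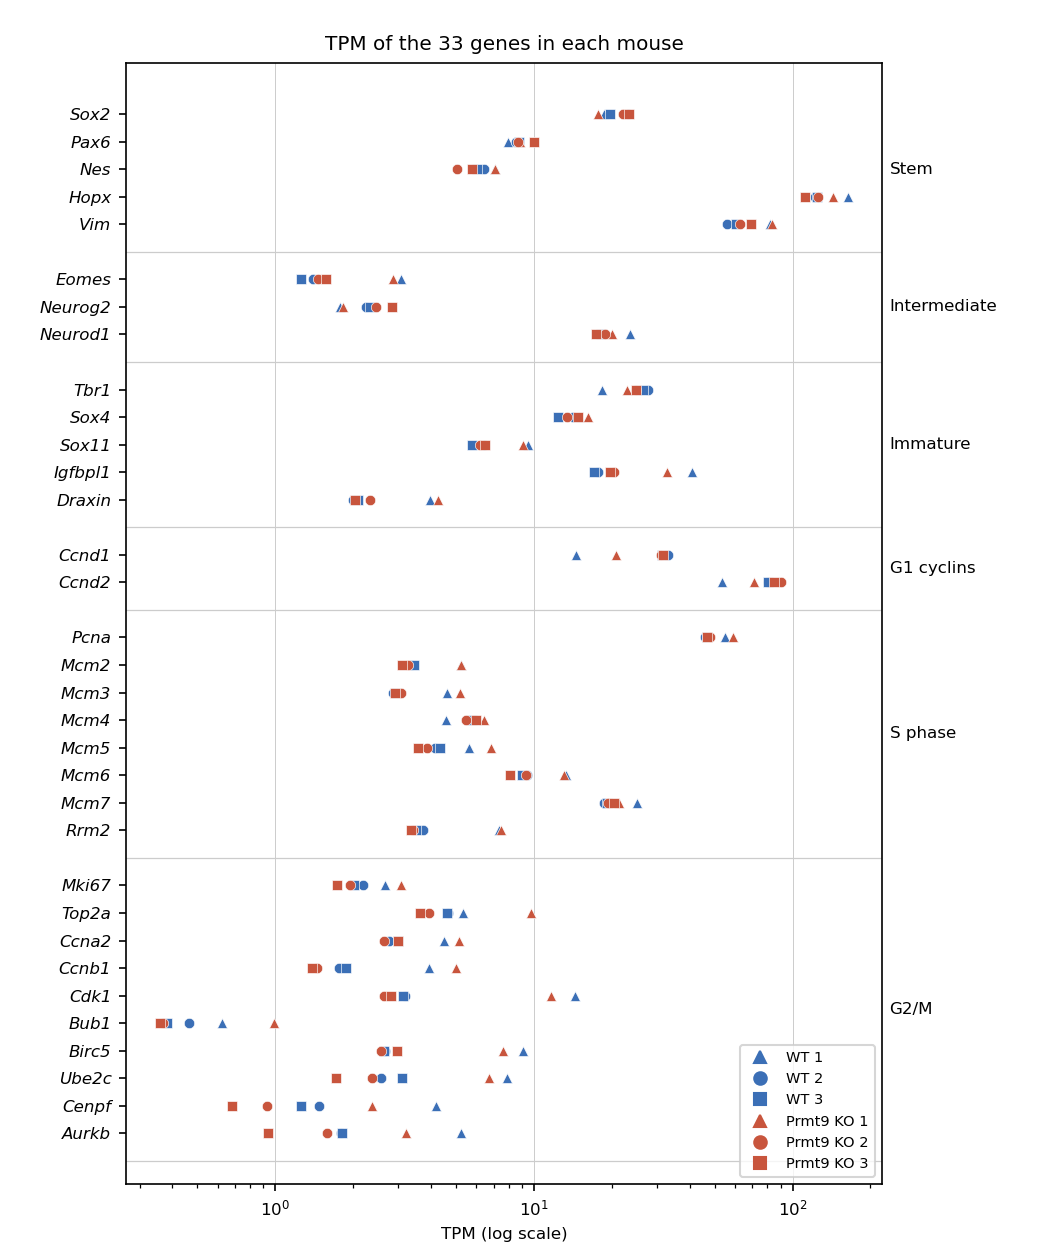
TPM of each of the 33 genes (rows, ordered by role) on a log axis, with 1 point per mouse, blue for WT and red for Prmt9 KO, and a triangle, circle or square for the mouse numbered 1, 2 or 3. The triangles lie to the right of the other points in most G2/M and S phase rows, as for Cdk1 with 14.4 and 11.7 TPM against 2.63 to 3.18 TPM, and to the left for Ccnd1 and Ccnd2.

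Among the stem and radial glia genes, Hopx, a homeodomain protein that marks quiescent dentate stem cells and is also found in astrocytes, had 163, 122 and 124 TPM in WT and 143, 126 and 112 TPM in Prmt9 KO. Vim, the intermediate filament vimentin of radial glia, had 81.9, 55.9 and 60.3 TPM in WT and 83.4, 62.8 and 68.8 TPM in Prmt9 KO. In both genes the mouse numbered 1 was the highest of its genotype. Nes, the intermediate filament nestin, had 7.09, 6.44 and 6.03 TPM in WT and 7.11, 5.03 and 5.79 TPM in Prmt9 KO, and again the mouse numbered 1 was the highest of its genotype. The transcription factors of stem cells did not follow this order. Sox2 had 18.6, 23.1 and 19.7 TPM in WT and 17.8, 22.1 and 23.3 TPM in Prmt9 KO. In TPM it was lowest in the mice numbered 1, but not on the CPM scale given below. Sox2 lies within the longer noncoding gene Sox2ot on the same strand, so reads of the pair may not be fully separated. Pax6 ranged from 7.97 TPM in WT 1 to 10.1 TPM in Prmt9 KO 3, with Prmt9 KO 1 at 8.82 TPM among the other mice.

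For the intermediate progenitors, Eomes, the T-box factor that defines them, had 3.08, 1.40 and 1.27 TPM in WT and 2.86, 1.47 and 1.58 TPM in Prmt9 KO. Neurog2, a proneural factor that acts upstream of Eomes, had 1.79, 2.26 and 2.32 TPM in WT and 1.83, 2.45 and 2.82 TPM in Prmt9 KO. The mice numbered 1 were thus above the other 4 in Eomes and below them in Neurog2. Neurod1, which drives the differentiation of granule neurons and stays on in them, had 23.6, 18.7 and 18.2 TPM in WT and 20.1, 18.8 and 17.4 TPM in Prmt9 KO.

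Of the genes of immature neurons, Igfbpl1, a secreted protein of newborn neurons, had 41.0, 17.7 and 17.1 TPM in WT and 32.8, 20.4 and 19.7 TPM in Prmt9 KO. Sox11, a factor required for the neuronal fate of progenitors, had 9.49, 6.44 and 5.79 TPM in WT and 9.07, 6.18 and 6.48 TPM in Prmt9 KO. Draxin, a secreted guidance protein, had 3.97, 2.00 and 2.10 TPM in WT and 4.27, 2.32 and 2.03 TPM in Prmt9 KO. In these genes both mice numbered 1 exceeded the other 4, with the lower of the pair at 1.61, 1.40 and 1.71 times the highest of the others for Igfbpl1, Sox11 and Draxin. Sox4, a close relative of Sox11, ranged from 12.4 to 16.2 TPM with the mice numbered 1 just above the others, since the lower of them, WT 1, had 14.9 TPM against 14.8 TPM in Prmt9 KO 3. Tbr1, a T-box factor of newly formed glutamatergic neurons that is also present in mature ones, had 18.4, 27.7 and 26.4 TPM in WT and 22.9, 24.9 and 24.9 TPM in Prmt9 KO, so that it was lowest in the mice numbered 1.

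The G1 cyclins had an order opposite to that of the later phases. Ccnd1, cyclin D1, which activates Cdk4 and Cdk6, had 14.6, 33.02 and 31.3 TPM in WT and 20.8, 31.1 and 31.7 TPM in Prmt9 KO. Ccnd2, cyclin D2, which is required for adult hippocampal neurogenesis, had 53.6, 80.6 and 80.7 TPM in WT and 70.8, 89.9 and 84.9 TPM in Prmt9 KO. For Ccnd2 the order depended on the scale: in normalized CPM, which scales counts by library size and not by length, the mice numbered 1 were above the others, at 143 and 170 CPM against 134 to 141 CPM. Ccnd1 was lowest in them on both scales, at 35.6 and 40.3 CPM against 53.8 to 56.9 CPM.

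Among the S phase genes, Pcna, the sliding clamp of DNA polymerases, had 54.8, 46.0 and 46.6 TPM in WT and 58.7, 48.0 and 46.9 TPM in Prmt9 KO. Rrm2, the subunit of ribonucleotide reductase that limits the supply of deoxynucleotides, had 7.33, 3.73 and 3.51 TPM in WT and 7.45, 3.42 and 3.34 TPM in Prmt9 KO. Rrm2 showed the wider separation of this group, with the lower mouse numbered 1 at 1.97 times the highest of the other 4. Mcm2 to Mcm7 form the replicative helicase in which each subunit is present once, and their RNA levels ranged from 2.86 TPM (Mcm3 in WT 2) to 25.0 TPM (Mcm7 in WT 1). Mcm6 had 13.3, 9.39 and 9.01 TPM in WT and 13.1, 9.29 and 8.06 TPM in Prmt9 KO. Mcm2 had 5.26, 3.37 and 3.44 TPM in WT and 5.24, 3.27 and 3.10 TPM in Prmt9 KO. Mcm3, Mcm5 and Mcm7 had the same order of mice, with the lower mouse numbered 1 at 1.05 to 1.498 times the highest of the others. In Mcm4, WT 1 was lowest at 4.57 TPM and Prmt9 KO 1 highest at 6.43 TPM.

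The G2/M genes had the largest differences between mice. Cdk1, the kinase that starts mitosis, had 14.4, 3.18 and 3.11 TPM in WT and 11.7, 2.63 and 2.80 TPM in Prmt9 KO. Ccnb1, cyclin B1, its mitotic partner, had 3.94, 1.76 and 1.87 TPM in WT and 5.01, 1.46 and 1.39 TPM in Prmt9 KO. Ccna2, cyclin A2, which acts from S phase to the start of mitosis, had 4.51, 2.75 and 2.999 TPM in WT and 5.16, 2.65 and 2.99 TPM in Prmt9 KO. In all 3 genes WT 1 and Prmt9 KO 1 lay above the other 4 mice, and for Cdk1 the lower of them was 3.67 times the highest of the others. Birc5, survivin, and Aurkb, the kinase of the same chromosomal passenger complex, had the same order of mice. Birc5 had 9.09, 2.65 and 2.63 TPM in WT and 7.57, 2.58 and 2.97 TPM in Prmt9 KO. Aurkb had 5.25, 1.79 and 1.82 TPM in WT and 3.1996, 1.59 and 0.942 TPM in Prmt9 KO. Ube2c, the ubiquitin-conjugating enzyme of the anaphase-promoting complex, had 7.88, 2.57 and 3.09 TPM in WT and 6.72, 2.37 and 1.73 TPM in Prmt9 KO. In each of these the mouse numbered 1 was the highest of its genotype, and Prmt9 KO 3 was the lowest of all 6 mice in Aurkb and Ube2c. Mki67, the proliferation antigen Ki-67, and Top2a, topoisomerase IIα, separated less clearly in TPM. Mki67 ranged from 1.73 to 2.19 TPM in the 4 mice numbered 2 or 3. WT 1 had 2.66 TPM and Prmt9 KO 1 had 3.07 TPM. Top2a had 5.34, 4.68 and 4.62 TPM in WT and 9.72, 3.95 and 3.64 TPM in Prmt9 KO. In TPM both genes were higher in Prmt9 KO 1 than in WT 1. In CPM Mki67 had 18.4 in WT 1 and 18.1 in Prmt9 KO 1, against 8.33 to 10.2 in the others. Top2a had 12.7 CPM in WT 1 and 15.7 CPM in Prmt9 KO 1, against 4.998 to 7.01 CPM. Bub1, a kinase of the spindle checkpoint, had 0.624, 0.466 and 0.382 TPM in WT and 0.989, 0.369 and 0.361 TPM in Prmt9 KO. Cenpf, a large kinetochore protein, had 4.20, 1.48 and 1.27 TPM in WT and 2.38, 0.936 and 0.683 TPM in Prmt9 KO. A 358-base transcript, Cenpf-202, held 3.10 TPM of this in WT 1, 1.22 TPM in Prmt9 KO 1 and at most 0.605 TPM in the other mice, while the 11130-base Cenpf-204 had 0.471 to 1.08 TPM over the 6 mice. In CPM, which does not divide by length, Cenpf had 8.38, 3.71 and 3.91 in WT and 7.35, 3.57 and 3.002 in Prmt9 KO.

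Counted over the members, TPM was higher in both mice numbered 1 than in each of the other 4 for 26 of 33 genes (78.8%), against 19.0% of the 20331 genes tested that have a TPM. It was lower for 5 genes (Sox2, Neurog2, Tbr1, Ccnd1 and Ccnd2), against 45.8% of all genes. In CPM the numbers were 28 of 33 higher (84.8%, against 32.7% of 20335 genes) and 1 lower (Ccnd1, against 31.5%). Of the 18 S phase and G2/M genes, 17 were higher in TPM and 18 in CPM, the exception being Mcm4. Sox2, Neurog2 and Tbr1, lower in TPM, were in CPM neither both above nor both below the other 4. In each, 1 of the mice numbered 1 lay within the range of the others and the other outside it. The mouse outside lay above the range for Sox2 (WT 1, 24.4 CPM against 19.9 to 23.6 CPM). For Neurog2 and Tbr1 it lay below. These counts describe 2 mice against 4 that the labels separate by number alone, so no test is given. The members were chosen with earlier results of these data known, so their share beside that of all genes is a description only.

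Summed over the 10 G2/M genes, TPM was 57.9, 23.5 and 23.8 in WT and 55.5, 20.5 and 19.2 in Prmt9 KO. The S phase genes summed to 120.4, 94.1 and 94.9 TPM in WT and 124.4, 95.7 and 94.3 TPM in Prmt9 KO. On both sums, the mouse numbered 1 of each genotype was closer to its counterpart in the other genotype than to the other mice of its own. The 5 immature neuron genes summed to 87.8, 68.0 and 63.8 TPM in WT and 85.3, 67.3 and 67.9 TPM in Prmt9 KO, and the 5 stem genes to 279, 216 and 219 TPM and 260, 224 and 220 TPM. The G1 cyclins, with 68.2, 114 and 112 TPM in WT and 91.6, 121 and 117 TPM in Prmt9 KO, were the one group that was lower in both mice numbered 1.

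Markers of other cells moved with the same 2 mice. The 4 oligodendrocyte markers Mbp, Mog, Mag and Mobp summed to 1697, 8659 and 7637 TPM in WT and 829, 6035 and 8562 TPM in Prmt9 KO, and 4 of 4 were lower in both mice numbered 1 than in the others. The 5 granule neuron markers summed to 96.1, 166 and 161 TPM in WT and 85.5, 165 and 149 TPM in Prmt9 KO, with 5 of 5 lower in TPM and 4 of 5 in CPM. Both marker sets were thus lower in the mice in which the G2/M genes were higher. This was not particular to them. In WT 1 and Prmt9 KO 1 the astrocyte (693 and 803 TPM), microglia (210 and 174 TPM) and neocortex (62.6 and 90.9 TPM) sums were also lowest. The oligodendrocyte precursor sum given below was lowest in them too. Gene by gene, 3 of 5 astrocyte, 2 of 5 microglia and 2 of 5 neocortex markers were lower in both in TPM. In CPM these were 2, 2 and 1. Higher in both were 1 microglia marker on either scale and 2 astrocyte markers in CPM. The endothelial and mural sums were highest in these mice, the mural sum narrowly, with 178.1 TPM in WT 1 against 177.8 TPM in WT 3. Gene by gene this was less uniform. Of 5 endothelial markers, both mice numbered 1 were higher in 1 and lower in 2 in TPM, and higher in 2 and lower in 1 in CPM. Of 5 mural markers they were higher in 1 in TPM and in 4 in CPM, and lower in 0. The interneuron and pyramidal neuron sums had neither order. The oligodendrocyte precursor markers (Pdgfra, Cspg4, Olig1, Olig2 and Sox10) summed to 224, 295 and 260 TPM in WT and 202, 244 and 283 TPM in Prmt9 KO. Of these 5, both mice numbered 1 were lower in 3 and higher in 1 in TPM, and lower in 1 and higher in 2 in CPM. Markers of the ganglionic eminence and subventricular lineage (Dlx1, Dlx2, Dlx5, Dlx6 and Sp8) summed to 39.0, 59.5 and 61.8 TPM in WT and 56.5, 56.3 and 61.8 TPM in Prmt9 KO, with 2 of 5 lower in TPM and 1 of 5 higher in CPM. The counts of these last 2 lists are near the share of all genes that was lower (45.8%) and turn with the scale. The part of these other cells in the levels of the 33 genes was not tested. The ependymal and choroid plexus markers, led by Ttr, summed to 7275, 624 and 2005 TPM in WT and 883, 2337 and 3342 TPM in Prmt9 KO and did not follow the number.

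**Figure D2:**
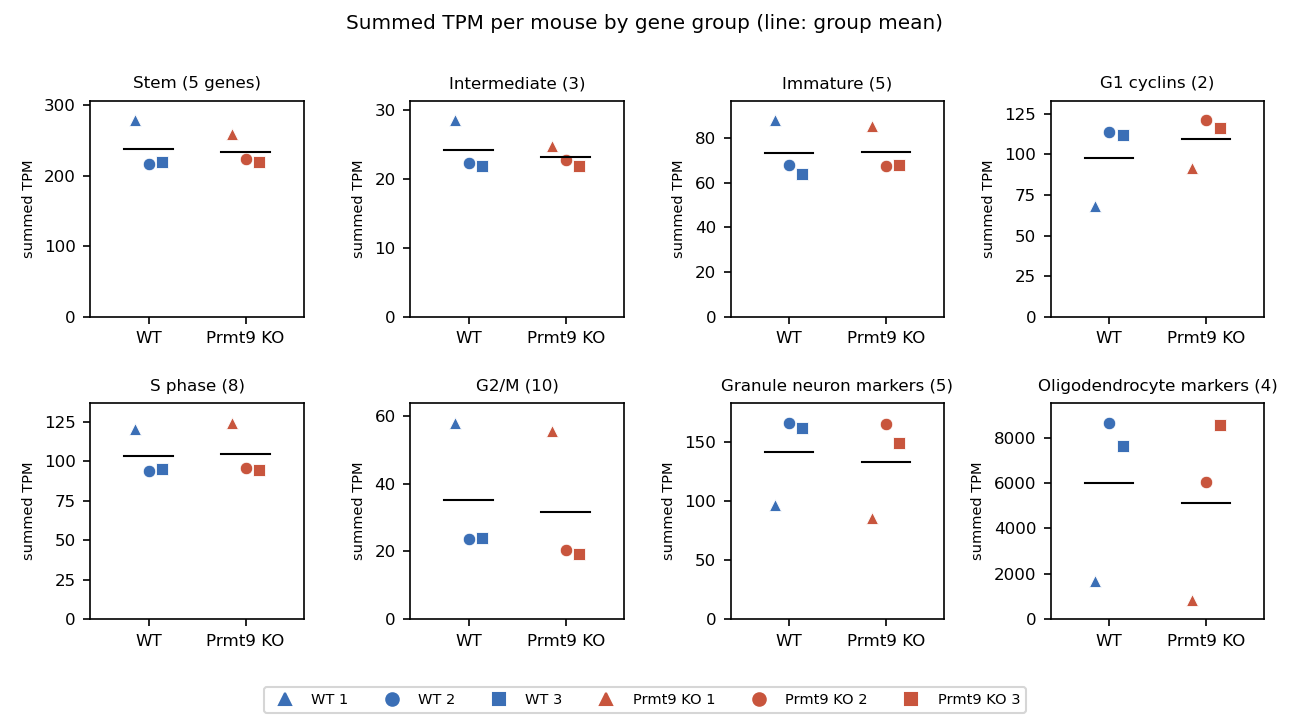
Summed TPM of the 6 role groups and of 5 granule neuron and 4 oligodendrocyte markers in each mouse (y axis from 0, in TPM), with WT and Prmt9 KO side by side, a triangle for the mice numbered 1 and a line at the mean of 3 mice. In the G2/M panel the triangles stand at 57.9 and 55.5 TPM and the other mice between 19.2 and 23.8 TPM, while in the oligodendrocyte panel the triangles stand at 1697 and 829 TPM, below the others.

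Between Prmt9 KO and WT, 0 of the 33 genes passed an adjusted p below 0.01 with a fold change above 1.5 in edgeR's quasi-likelihood test, as did 0 of 20335 genes (0%). At an unadjusted p below 0.05 there were 0 of the 33 genes, against 251 of all genes (1.23%), and DESeq2 also gave 0 members under either limit, against 2 and 525 of all genes. The lowest Benjamini-Hochberg adjusted p among the members in edgeR was 0.9999. The log2 fold change ranged from -0.49 for Aurkb (SE 0.72) to 0.27 for Bub1 (SE 0.58), and 23 genes lay within 0.2 of 0. The median over the members was -0.08 (10 above and 23 below 0), beside -0.01 over all genes tested. TPM of the 3 Prmt9 KO mice overlapped that of the 3 WT mice in 33 of 33 genes, where 6.67% of all genes did not overlap (7.01% in CPM). These results do not show that the levels are equal, since the standard errors, with a median of 0.36, were as large as or larger than most of the differences. The 5 blood markers (Hbb-bs, Hba-a1, Hba-a2, Alas2 and Slc4a1) summed to 2422, 4023 and 5979 TPM in WT and 991, 3100 and 1832 TPM in Prmt9 KO, with 5 of 5 log2 fold changes below 0 (median -1.09). Of these, 1 had an unadjusted p below 0.05 in edgeR, beside 1.23% of all genes. With a batch term for number 1 all 5 did, beside 9.71% of all genes. The blood markers that passed the thresholds were 0. Their part in the genotype values of the 33 genes was not tested.

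By role, 8 of 10 G2/M genes and 7 of 8 S phase genes had a log2 fold change below 0, and none passed the test. Their medians were -0.15 and -0.09, beside -0.01 over all genes tested. The other genes of these steps, described below, did not repeat this split. Among them 15 of 28 G2/M genes and 9 of 22 S phase genes lay below 0, with medians of -0.02 and 0.07. Cdk1 had 3.65 ± 3.82 CPM in WT and 2.78 ± 2.80 CPM in Prmt9 KO (SD, n = 3 each), a log2 fold change of -0.39 (SE 0.96). Ube2c had a log2 fold change of -0.43 (SE 0.74) and Ccnb1 of -0.23 (SE 0.73). In each of these genes 1 mouse per genotype, the one numbered 1, was well above the other 2. The stem genes ranged from -0.21 (Nes, SE 0.24) to 0.06 (Pax6, SE 0.11). For Eomes the log2 fold change was -0.05 (SE 0.54), for Sox11 -0.11 (SE 0.34) and for Igfbpl1 -0.22 (SE 0.57). Tbr1 had 34.0 ± 2.78 CPM in WT and 34.5 ± 0.638 CPM in Prmt9 KO (SD, n = 3 each), with a log2 fold change of 0.02 (SE 0.10), which is among the narrower errors of the list. For the G1 cyclins it was 0.01 (Ccnd1, SE 0.22) and 0.12 (Ccnd2, SE 0.12).

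The median over the members depended on which mice entered. Leaving out 1 mouse at a time moved it from -0.42 without Prmt9 KO 1 to 0.26 without WT 1, with 6 and 31 of the 33 genes above 0. It was -0.26 and -0.24 without WT 2 and WT 3, and 0.04 without Prmt9 KO 2 or Prmt9 KO 3. Per-gene values moved in the same way, as Cdk1 ranged from -1.64 to 0.95 over the alternatives. With TPM in place of counts (limma on log2(TPM + 1)), the median was 0.02, with 18 genes above and 15 below 0, beside 0.05 over all genes.

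The 3 fits that take the number of the mice into account had smaller errors. With a batch term that set number 1 apart, 5 members had an unadjusted p below 0.05 (Nes, Ccnb1, Cdk1, Ube2c and Aurkb, all lower in Prmt9 KO), which is 5 of 33 beside 9.71% of all genes. With the replicate number as a block there were 4 (Nes, Cdk1, Ube2c and Aurkb), beside 5.73% of all genes. Without both mice numbered 1 there were 7 (Nes, Vim, Igfbpl1, Top2a, Ccnb1, Cdk1 and Aurkb), beside 16.4% of all genes, with Vim and Igfbpl1 higher in Prmt9 KO. None of the 33 genes passed an adjusted p in these edgeR fits, where the lowest Benjamini-Hochberg adjusted p was 0.445, 0.791 and 0.167. In the fit with the batch term 1 gene of 20335 passed the thresholds (0.00492%), which was Prmt9. The log2 fold changes with the batch term were -0.35 (SE 0.10) for Cdk1, -0.49 (SE 0.16) for Aurkb, -0.44 (SE 0.16) for Ube2c, -0.26 (SE 0.10) for Ccnb1 and -0.21 (SE 0.07) for Nes. They differed little from those of the fit without the term, while the errors of all 33 genes were smaller.

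**Figure D3:**
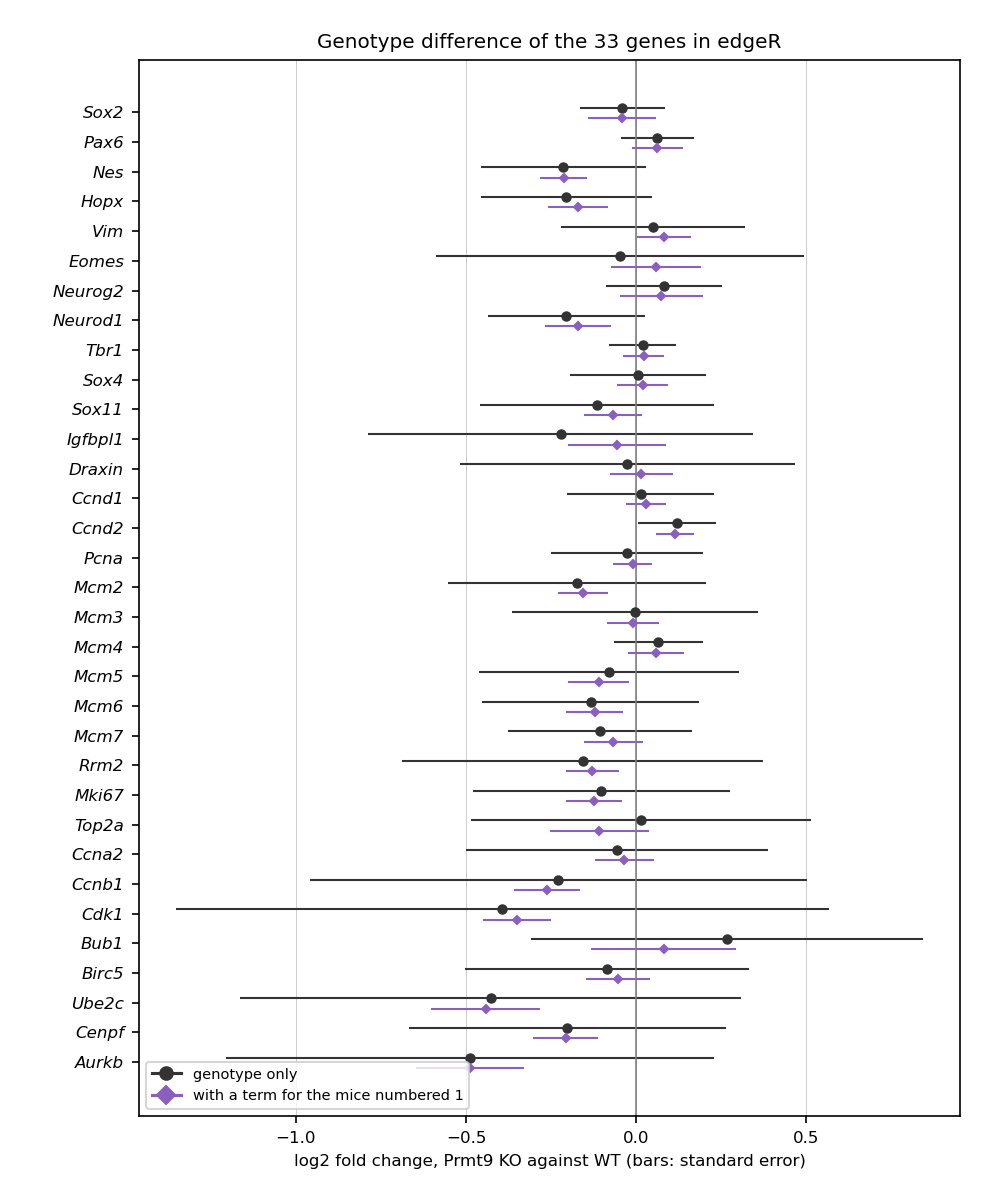
Log2 fold change of Prmt9 KO against WT for the 33 genes (x axis) with standard errors as bars, from edgeR with genotype alone (circles) and with a term for the mice numbered 1 (diamonds). The circles lie between -0.49 (Aurkb) and 0.27 (Bub1) with bars that mostly cross 0, and the diamonds have shorter bars, with Aurkb, Ube2c, Cdk1, Ccnb1 and Nes furthest below 0 relative to their bars.

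In a count made after the values were seen, CPM was lower in Prmt9 KO than in the WT mouse of the same number in 3 of 3 pairs for 9 of the 33 genes (27.3%, beside 16.5% of all genes tested), and higher in 3 of 3 for Ccnd2 alone (3.03%, beside 15.5%). The 9 were Nes, Mcm2, Rrm2 and 6 of the 10 G2/M genes (Mki67, Ccnb1, Cdk1, Ube2c, Cenpf and Aurkb). In Aurkb, for example, the pairs were 3.43 and 2.44 CPM, 1.03 and 0.850 CPM, and 0.990 and 0.590 CPM. The count depended on the scale, since in TPM 6 genes were lower in every pair (Mcm2, Mcm6, Cdk1, Ube2c, Cenpf and Aurkb) and 5 were higher (Pax6, Vim, Neurog2, Ccnd2 and Pcna). Mcm2, Cdk1, Ube2c, Cenpf and Aurkb were lower, and Ccnd2 higher, on both scales. The share over all genes was counted in CPM only. Whether the TPM counts, or those on both scales, exceed that of all genes was thus not tested. The pairs follow the numbers in the labels, whose meaning is not given.

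The wider programme was followed in 94 other genes of the same steps and of cell cycle control, also chosen with earlier results of these data known. All 94 were tested, 0 passed the thresholds in edgeR and 0 had an unadjusted p below 0.05, beside 0% and 1.23% of all genes. Their median log2 fold change was -0.02, with 40 above and 54 below 0. In CPM 74 of 94 (78.7%, against 32.7% of all genes) were higher in both mice numbered 1 than in the other 4. In TPM 56 of 94 were higher (59.6%, against 19.0% of all genes). By step, the mice numbered 1 were higher in CPM for 27 of 28 other G2/M genes, 20 of 22 S phase genes and 6 of 12 stem genes. The same held for 4 of 6 intermediate progenitor genes and 8 of 12 immature neuron genes. It also held for 9 of 14 cell cycle regulators, which are cyclin-dependent kinases, their inhibitors, Ccnd3, Rb1, Rbl1 and Rbl2. The exception among the other G2/M genes was Anln, named here after its value was seen, which was below the others. Fabp7, the fatty acid-binding protein of radial glia, had 641, 97.1 and 97.0 TPM in WT and 713, 99.1 and 85.5 TPM in Prmt9 KO. Stmn1, stathmin, which destabilizes microtubules in immature neurons, had 1007, 450 and 450 TPM in WT and 1279, 467 and 449 TPM in Prmt9 KO. Dut, which removes dUTP during DNA synthesis, ranged from 27.0 to 49.7 TPM and Cdk4, the partner of D-type cyclins, from 97.4 to 184 TPM, both highest in WT 1. Incenp, the scaffold of the chromosomal passenger complex, ranged from 11.5 to 14.4 TPM and Elavl4, an RNA-binding protein of new neurons, from 25.9 to 39.1 TPM.

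At the level of transcripts, 111 annotated transcripts of the 33 genes could be tested. Of these, 0 passed the thresholds and 0 had an unadjusted p below 0.05 in edgeR, where 0 (0%) and 1215 (1.61%) of 75682 transcripts did. The share of each transcript in its gene's TPM was followed for 24 members with a mean of at least 2 TPM and more than 1 annotated transcript, which gave 46 transcripts with a mean share of at least 0.1. For 3 of the 46 the Prmt9 KO mice did not overlap the WT mice, where 9.47% of such shares over all genes did not overlap. With 3 mice in each genotype the smallest p of the exact permutation test, two-sided, is 0.1. A share that does not overlap always has this p, so the p adds nothing to the lack of overlap. The protein-coding Tbr1-201 of 3977 bases held 0.564, 0.563 and 0.574 of Tbr1 in WT and 0.599, 0.616 and 0.599 in Prmt9 KO, a difference of 0.0377 with p = 0.1 by the exact permutation test. The shorter Tbr1-203 of 796 bases, annotated as a processed transcript without a coding sequence, was lower in Prmt9 KO by a share of 0.0393. These shares nearly sum to the whole of 1 gene, so they count as 1 difference. Top2a-207, a processed transcript of 803 bases, held 0.00887, 0.126 and 0.103 of Top2a in WT and 0.226, 0.135 and 0.151 in Prmt9 KO, with p = 0.1 by the same exact test.

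The mice numbered 1 were both above or both below the other 4 in 17 of the 46 shares, beside 50.9% over all genes. In Birc5 the isoforms differed widely: the 947-base Birc5-201 held 0.926, 0.510 and 0.531 of the gene's TPM in WT and 0.838, 0.536 and 0.563 in Prmt9 KO. Its TPM was 8.42, 1.35 and 1.40 in WT and 6.34, 1.38 and 1.67 in Prmt9 KO, while the 3334-base Birc5-202 had 0.672, 1.30 and 1.23 TPM in WT and 1.23, 1.20 and 1.30 TPM in Prmt9 KO. The higher Birc5 level of the mice numbered 1 thus lay in Birc5-201 and not in Birc5-202. The main transcripts of Cdk1 (Cdk1-202, 1253 bases) and Ccna2 (Ccna2-201, 2965 bases) held mean shares of 0.538 and 0.716, and their mice numbered 1 did not separate from the others in share.

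**Figure D4:**
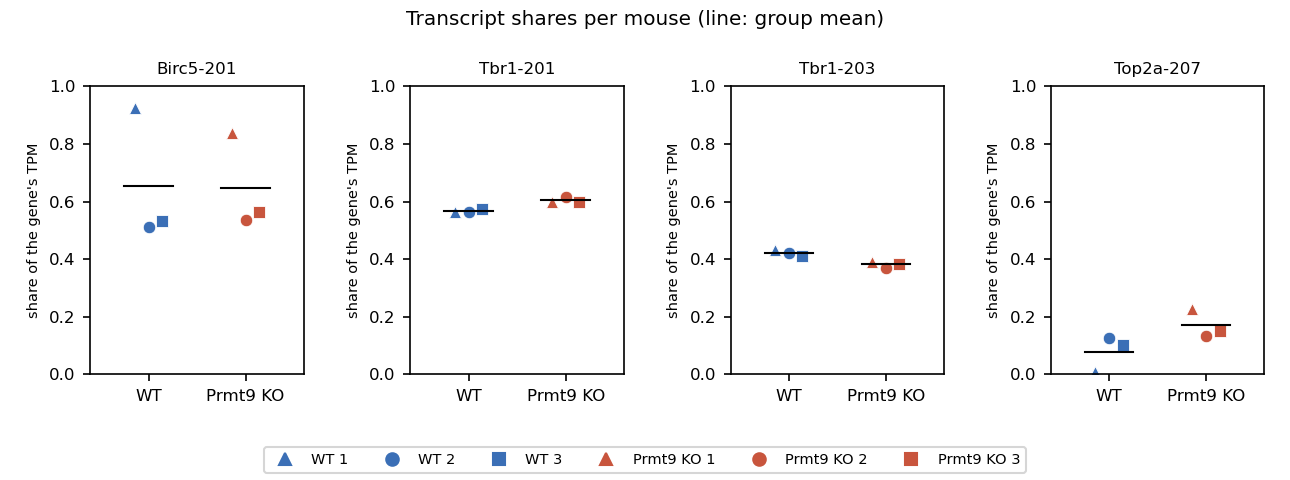
Share of the gene's TPM (y axis, 0 to 1) held by Birc5-201, Tbr1-201, Tbr1-203 and Top2a-207 in each mouse, WT in blue and Prmt9 KO in red, a triangle for the mice numbered 1 and a line at the mean of 3 mice. Birc5-201 stands at 0.926 and 0.838 in the mice numbered 1 and between 0.510 and 0.563 in the others, and the genotypes do not overlap in the other 3 panels.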

How the data were processed

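Stranded TruSeq poly(A)+ libraries of 6 hippocampi (3 WT, 3 Prmt9 KO) were sequenced with paired ends, and the authors quantified transcripts with kallisto (0.46.0 in the submitters' processing notes, which also name STAR 2.7.1a). The deposited values are an estimated count and a TPM for each of 118783 transcripts, and the authors' table of TPM per gene. Whether kallisto used strand is not given in the sources used here, and 15 members overlap another annotated gene (14 of them on the opposite strand), so reads of such partners may not be told apart.

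Transcripts were assigned to genes by identifier with GENCODE M21 (116710 matched, 2073 did not and held at most 0.7% of counts). Estimated counts were summed per gene and rounded. Genes and transcripts were compared between genotypes over all 6 mice with edgeR 4.0.16 (quasi-likelihood test, TMM normalization, filterByExpr, Benjamini-Hochberg adjustment over all features tested, R 4.3.3), with calls made at the study's thresholds (fold change above 1.5, adjusted p below 0.01). CPM are TMM-normalized. The study used DESeq2, which was run here as an alternative (1.42.0), as were limma 3.58.1 on log2(TPM + 1) and log2(TPM + 0.1) with a mean above 0.5 TPM or no filter, other size factors, no count filter, a replicate block, a batch term for number 1, and fits without single mice or without both mice numbered 1. Shares were compared by an exact permutation test (SciPy 1.17.1).

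Same-numbered mice deviated together from their group means (correlations of 0.552, 0.417 and 0.378, each above 0.1), and the number was taken to pair mice. Numbers 2 and 3 were not told apart by this check, as WT 2 with Prmt9 KO 3 gave 0.409 and WT 3 with Prmt9 KO 2 gave 0.396. Deviations were taken from the mean of each genotype, so a distant mouse numbered 1 makes the others deviate together. The pairs numbered 2 and 3, in the block and in the pair counts, thus rest on the labels alone. p-values measure the spread between single mice.

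The members, the 94 other genes and the marker lists were chosen with earlier results of these data known. The oligodendrocyte list is given without 1 gene that it first held, which is not reported here. All 33 members are named. Of the other lists, values could be given for the gene with the highest mean TPM and any with an unadjusted p below 0.05 (1 gene, Hbb-bs of the blood markers, at 472 to 2687 TPM), and other genes are named as the contents of a list. Transcripts named are the main one of a member or one whose share did not overlap between genotypes, and Birc5-202 and Cenpf-204, chosen after their values were seen. The other marker lists were summed too, with these ranges over the 6 mice: interneuron 819 to 949 TPM, astrocyte 693 to 931 TPM, microglia 174 to 237 TPM, endothelial 158 to 209 TPM, mural 153 to 197 TPM, neocortex 62.6 to 97.8 TPM and pyramidal neuron 360.1 to 420.5 TPM. Promoters came from RefSeq, taking for a gene with several the one nearest to the start of its main transcript.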

Additional observations from a re-analysis of the deposited data

How the results depend on the processing

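The count of members called stayed at 0 of 33 in the 15 alternatives run. The count with an unadjusted p below 0.05, 0 as reported, became 4 with the replicate block, 5 with the batch term and 7 without both mice numbered 1, and was 0 when single mice were left out. The replicate block changed no other call. Leaving out single mice moved the median log2 fold change of the members from -0.421 to 0.261. For Prmt9, whose log2 fold change had an edgeR Benjamini-Hochberg adjusted p of 0.0327, above 0.01, the call was made at -1.712 with DESeq2 (adjusted p = 1.44e-60), at -1.707 with the edgeR batch term (adjusted p = 0.0013) and at -1.674 in edgeR without both mice numbered 1 (adjusted p = 0.00118). It lay between -1.731 and -1.677 without single mice (edgeR adjusted p from 0.1 to 0.899). The 3 transcript shares that did not overlap became 2 with estimated counts and 4 with genes of at least 1 TPM. Without single mice they became 3 to 11 (6 without WT 3, 8 without Prmt9 KO 2, 9 without WT 1 and 11 without Prmt9 KO 1). Leaving out a mouse sets fewer mice against each other, which makes it easier for a share not to overlap. The share over all genes was not counted for these settings, so the counts are no result about the members. The cause of the changes between settings was not tested. Each member had at least 135 estimated counts in every mouse, and 3 mice per genotype limit the precision.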
